A study of Mus musculus with 9 samples.

Results

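Gene expression in MC3T3-E1 cells at 24 h after low-intensity pulsed ultrasound (LIPUS) was compared with that in mock-treated control cells. The comparison took every array labelled LIPUS-24 h and every control array, which made 6 of the 9 arrays of the series, with 3 in each group. A LIPUS array and a control array that share a replicate number were taken as a pair, here called an experiment. MC3T3-E1 cells are mouse preosteoblasts of an established line. The cells had been kept for 14 days in medium with ascorbic acid and β-glycerophosphate, which promotes osteoblast differentiation, and were then seeded again. LIPUS was applied once for 20 min through the dish bottom, at 30 mW/cm2 and 1.5 MHz, and was followed by 24 h of culture. The mock control carried the same pretreatment without ultrasound, and the time for which it was cultured is not given in the sources used here, so that time in culture and LIPUS cannot be told apart in any value below. The remaining 3 arrays, of cells at 6 h after LIPUS, entered the estimate of the spread and are given beside some results.

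LIPUS is used clinically to help fractures heal. Preosteoblasts are cells on the way to becoming bone-forming osteoblasts. They lay down a collagen matrix and secrete growth factors and proteases that remodel it. In these cells secreted ligands act on surface receptors, whose signals reach the nucleus through transcription factors, and the results below are given in that order, before transport and metabolism.

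Each array held log2 signals of 45037 probe sets besides controls, made by the authors with robust multi-array average (RMA). A gene was read from the probe set of the highest mean signal among those that name 1 gene, which gave 18193 genes. The test was limma with the experiment as a block, and a gene was called higher or lower at an adjusted p under 0.05, with adjustment over all 45037 probe sets. At 24 h, 809 probe sets (1.8%) were higher and 420 (0.933%) lower, which made 1229 (2.73%). In genes these were 467 higher (2.57%) and 286 lower (1.57%), or 753 (4.14%). Of the called genes 294 had 1 probe set and 459 had several. Another probe set was called the same way for 117 of the 459, and the opposite way for 0. Between 24 h and 6 h, 589 genes (3.24%) were called. The changes were small. The higher genes had a median log2 fold change of 0.295, with 0.292, 0.284 and 0.305 in experiments 1, 2 and 3, and 60 of them reached 1.5-fold in the mean. The lower genes had a median of -0.276, with -0.315, -0.254 and -0.249 by experiment, and 18 of them reached a change of 1.5-fold. The ratio was at least 1.5 in every experiment for 33 higher genes (0.181% of all) and 11 lower genes (0.0605%). The 3 arrays at 24 h lay wholly above the 3 control arrays for 135 of the higher genes, and wholly below for 82 of the lower ones, where 1.09% and 0.792% of all genes stood apart in these directions.

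The call rested on the pairing. Without the experiment as a block 0 genes were called higher or lower with limma, and without experiment 1 also 0. In these 2 settings 372 and 3739 probe sets had an unadjusted p under 0.05. Neither count can be read against a share of 0.05 of the 45037 probe sets. Without the block, differences between experiments stay in the spread. The equal signals given below also keep p-values from an even spread in both settings. Without experiment 2, 25 genes were higher and 10 lower. Signals of control and 24 h arrays were exactly equal for 1.26% of probe sets in experiment 1, 48.4% in experiment 2 and 31.9% in experiment 3. None of the 1229 called probe sets had such a ratio of exactly 1. Equal signals on 2 or 3 arrays of an experiment, the 6 h array included, occurred in 87.2% of all probe sets. They also occurred in 192 of the called ones (15.6%) and entered the estimate of the spread. Whether RMA was run on each experiment apart is not given in the sources used here, and the part of such processing in the likeness of same-numbered arrays, on which the calls rest, was not tested. Where a gene lies in signal also bears on the counts: 428 higher and 276 lower genes were among the 9096 above the median signal, and 39 and 10 among the 9097 at or below it. *Actb*, which encodes an actin of the cytoskeleton and served as reference, was at -0.016 on the log2 scale (standard error, SE, 0.015, adjusted p = 0.701 from limma), and 0 of 17 measured reference genes were called.

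Genes were grouped into lists of secreted factors, receptors, transcription factors, channels and transporters, and enzymes. Of 637 secreted products measured, 45 were higher (7.06%) and 11 lower (1.73%). The receptor lists held 655 genes, with 23 higher (3.51%) and 7 lower (1.07%). Among 671 transcription factors, 31 were higher (4.62%) and 9 lower (1.34%). Channels and transporters had 14 higher (1.94%) and 7 lower (0.968%) of 723 genes. Of 1231 metabolic enzymes, 42 were higher (3.41%) and 35 lower (2.84%). For each of these classes the median log2 fold change lay between -0.009 and 0.010, near the 0.001 of all genes, and the calls were those of single members. Signals differed between classes, with a median percentile among probe sets of 47.5 for secreted products, 46.1 for receptors and 74.1 for enzymes, against 65.6 for all genes. Counts in single lists below are to be read beside the 2.57% higher and 1.57% lower of all genes, which several of them hardly exceed or do not reach.

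**Figure D1:**
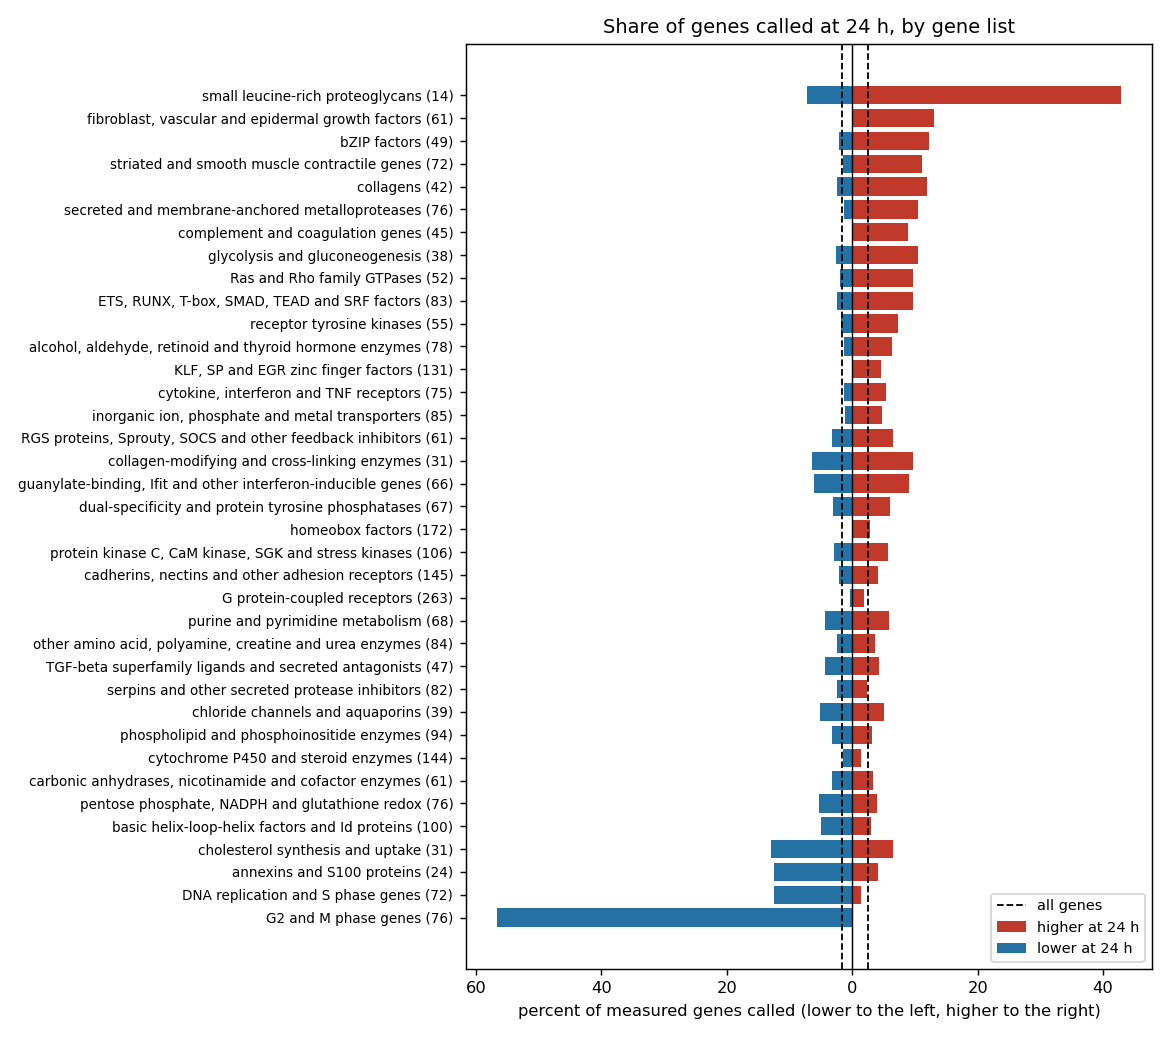
Each bar gives the percent of measured genes in a list that were called higher (red, to the right) or lower (blue, to the left) at 24 h, for lists with at least 4 called genes, and the number measured is in parentheses. Dashed lines mark the 2.57% and 1.57% of all genes. The small leucine-rich proteoglycans extend farthest to the right, with 6 of 14 genes, and the G2 and M phase genes farthest to the left, with 43 of 76.

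Of 61 growth factors measured, 8 were higher and 0 lower, beside 2.57% and 1.57% of all genes. *Fgf18*, a fibroblast growth factor that acts in skeletal development, had log2 signals of 5.80, 5.73 and 5.74 in control cells of experiments 1, 2 and 3 and of 6.37, 6.80 and 6.15 at 24 h. All 24 h arrays lay above the control arrays, with the widest gap in experiment 2. Its log2 fold change was 0.69 (SE 0.12, adjusted p = 0.0372 from limma). *Igf1*, an insulin-like growth factor made by bone cells, had 10.38, 10.43 and 10.06 in control cells and 10.81, 10.90 and 10.56 at 24 h. The groups stood apart, and the rise was 0.47 (SE 0.03, adjusted p = 0.00118). *Igf2*, its fetal relative, rose by 1.05 at the probe set used. The smaller rises were those of *Ccn2* at 0.38, *Ccn3* at 0.27, *Fgf7* at 0.19, *Ccn1* at 0.17 and *Pdgfc* at 0.16, and for each of these the groups overlapped while every experiment rose.

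Ligands and antagonists of other families changed both ways. *Dkk2*, a secreted Wnt antagonist, had log2 signals of 6.41, 6.56 and 5.83 in control cells and 6.92, 7.17 and 6.64 at 24 h, where every 24 h array was above every control array. Its log2 fold change was 0.65 (SE 0.06, adjusted p = 0.00428 from limma). *Sfrp2*, another secreted Wnt regulator, was higher at 0.25. *Cthrc1*, a secreted glycoprotein that modifies Wnt signalling, was lower at -0.57. In the Wnt list 2 of 36 genes were higher and 1 lower, beside 2.57% and 1.57% of all genes. Of 47 ligands and antagonists of the TGF-β superfamily, *Fst*, which encodes the activin antagonist follistatin, was higher at 0.37 and *Tgfb2* at 0.28. *Ltbp2*, a microfibril-associated protein of the latent TGF-β binding family, had 8.86, 9.001 and 8.73 in control cells and 8.20, 8.44 and 8.35 at 24 h. The groups did not overlap, and the log2 fold change was -0.53 (SE 0.07, adjusted p = 0.0101). *Sostdc1*, a BMP and Wnt antagonist, was the other lower gene at -0.60.

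Of 50 hormones, neuropeptides and granins 2 were higher (4%) and 1 lower (2%), beside 2.57% and 1.57% of all genes. *Edn1*, the precursor of the vasoconstrictor endothelin, had log2 signals of 6.47, 6.59 and 6.50 in control cells and 5.53, 6.18 and 5.90 at 24 h. The control arrays were close together, the 24 h arrays were all lower and spread out, and the log2 fold change was -0.65 (SE 0.10, adjusted p = 0.0209 from limma). *Agt*, the precursor of angiotensin, had 6.42, 6.69 and 6.48 in control cells against 6.997, 7.33 and 6.78 at 24 h, with a log2 fold change of 0.51 (SE 0.07, adjusted p = 0.012). *Penk*, which encodes the opioid precursor proenkephalin, went from 5.58, 5.55 and 5.53 to 5.90, 5.90 and 5.84, and its narrow groups stood apart. Of 41 guidance cues 3 were higher and 0 lower. *Sema3g*, a secreted semaphorin, was at 0.57, followed by the ephrins *Efnb2* at 0.36 and *Efna5* at 0.24. Of 34 chemokines 1 was called (2.94%), and of 63 cytokines 2 (3.17%), beside 4.14% of all genes. These were *Cklf* at -0.21, *Mif*, which encodes macrophage migration inhibitory factor, at 0.15, and *Kitl*, the ligand of the Kit receptor, at -0.41.

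**Figure D2:**
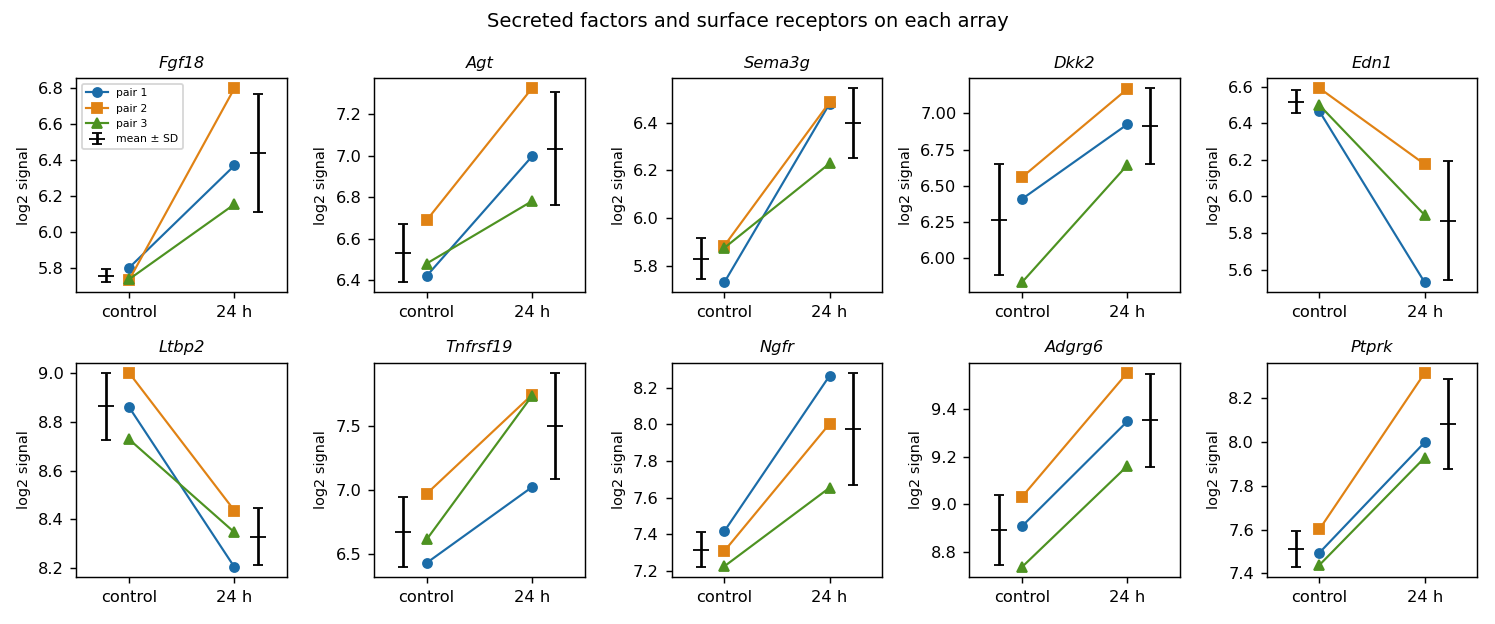
Log2 signals (vertical axes) of secreted factors and surface receptors on the control and 24 h arrays, with a line for each of the 3 experiments and the mean ± SD of each group beside it. Every line of *Edn1* and *Ltbp2* falls, every line of the other genes rises, and in each panel the 2 groups of points do not overlap.

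Of 76 metalloproteases 8 were higher (10.5%) and 1 lower (1.32%), beside 2.57% and 1.57% of all genes. *Mme*, which encodes the cell surface peptidase neprilysin, had log2 signals of 10.43, 10.69 and 9.96 in control cells and 11.01, 11.30 and 10.80 at 24 h, all above control. Its rise was 0.67 (SE 0.05, adjusted p = 0.00172 from limma) and both of its probe sets were called. *Adamts1*, a protease of proteoglycans, rose by 0.62, *Mmp9*, a gelatinase, by 0.47, *Adamts5*, an aggrecanase, by 0.28 and *Mmp2*, another gelatinase, by 0.21, besides the collagenase *Mmp13* at 1.34 and 2 further members. *Adam9*, a membrane-bound protease, was the lower one at -0.20. *Fap*, a surface protease of activated fibroblasts that is in none of these lists, was among the largest rises. Its log2 signals were 3.50, 4.19 and 3.33 in control cells and 4.64, 5.11 and 3.93 at 24 h, so that the groups overlapped while each experiment rose, by 0.89 on average (SE 0.10, adjusted p = 0.00726). These control signals were low, below the median signal of each array.

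Of 42 collagens 5 were higher (11.9%) and 1 lower (2.38%), beside 2.57% and 1.57% of all genes. *Col24a1*, a fibrillar collagen of developing bone, had log2 signals of 4.25, 4.74 and 3.71 in control cells and 4.83, 5.39 and 4.50 at 24 h. The groups overlapped, the control signals lay below the median signal of each array, and within experiments the rise was 0.68 (SE 0.08, adjusted p = 0.00839 from limma). *Col11a1* was at 0.42, *Col16a1* at 0.37, *Col8a1* at 0.34 and *Col4a6* at 0.23. *Col2a1*, the main collagen of cartilage, had 10.09, 10.21 and 9.88 in control cells and 9.26, 9.42 and 9.04 at 24 h. The groups stood well apart and the fall, at a log2 fold change of -0.82 (SE 0.03, adjusted p = 9.0e-05), was the largest outside the tables of the study. *Cnmd*, which encodes the cartilage protein chondromodulin, was lower at -0.45, and 1 of 18 chondrocyte markers was higher and 2 lower. Among the enzymes that modify collagen, *Lox*, which starts its cross-linking, was lower at -0.32, and *P4ha1*, a prolyl hydroxylase subunit, was higher at 0.18. The small leucine-rich proteoglycans had 6 higher genes and 1 lower gene of 14, with a median log2 fold change of 0.218 against 0.001 for all genes. Beside *Omd* and *Lum* these were *Aspn* at 0.45, *Ogn* at 0.33, *Fmod* at 0.25 and *Prelp* at 0.21, while *Bgn*, which encodes biglycan, was lower at -0.08. The other probe set of *Aspn*, of similar signal, was at 0.16 and was not called (adjusted p = 0.591 from limma). That of *Ogn*, at 0.56, was called. Further probe sets of *Fmod* were called at 0.27 and 0.26 and not called at 0.21, 0.22 and 0.14.

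Of 75 receptors of cytokines and TNF ligands, 4 were higher (5.33%) and 1 lower (1.33%), beside 2.57% and 1.57% of all genes. *Tnfrsf19*, a TNF receptor family member of mesenchymal and epithelial cells, had log2 signals of 6.43, 6.97 and 6.61 in control cells and 7.02, 7.74 and 7.74 at 24 h. The 24 h arrays all lay above control, and the rise was 0.83 (SE 0.09, adjusted p = 0.00608 from limma), at 1 of its 3 probe sets. *Ngfr*, a receptor of neurotrophins, had 7.42, 7.31 and 7.22 in control cells and 8.27, 8.003 and 7.65 at 24 h. Its groups stood apart, and the rise was 0.66 (SE 0.09, adjusted p = 0.0132), also at 1 of 3 probe sets. *Ghr*, the receptor of growth hormone, rose by 0.36 and *Il17rd*, an inhibitor of FGF signalling, by 0.35. *Osmr*, which binds oncostatin M, was lower at -0.23.

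Among receptor tyrosine kinases 4 of 55 were higher. These were *Ephb6* at 0.40, a receptor of ephrins, *Fgfr1* at 0.32 and *Fgfr2* at 0.28, which bind fibroblast growth factors, and *Mertk* at 0.30, a receptor of Gas6. *Flt1*, which binds vascular endothelial growth factor, was lower at -0.26. Its other probe sets, at -0.05, -0.02 and 0.002, were not called. Of 263 G protein-coupled receptors 5 were higher and 1 lower, which is 1.9% and 0.38%, beside 2.57% and 1.57% of all genes. Besides the chemokine scavenger *Ackr4* these included *Adgrg6*, an adhesion receptor that acts in cartilage and peripheral nerve. It had log2 signals of 8.91, 9.03 and 8.74 in control cells and 9.35, 9.55 and 9.16 at 24 h, without overlap, and a rise of 0.46 (SE 0.03, adjusted p = 9.97e-04 from limma). *Ptgfr*, the receptor of prostaglandin F, was at 0.37. Of 25 integrins *Itga8* was higher at 0.39 and *Itga1* at 0.18, and *Itga6*, a laminin receptor subunit, was lower at -0.41. Receptor-type phosphatases were called in both directions, with *Ptprd* at 0.62, *Ptprk* at 0.57 and *Ptprn* at -0.52.

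Of 83 factors of the ETS, RUNX, T-box, SMAD, TEAD and SRF families 8 were higher and 2 lower. These are 9.64% and 2.41%, beside 2.57% and 1.57% of all genes. *Srf*, which encodes serum response factor, an activator of cytoskeletal genes, had log2 signals of 8.68, 8.98 and 8.34 in control cells and 9.26, 9.60 and 8.97 at 24 h. Experiments 1, 2 and 3 rose almost alike, and the groups overlapped through the differences between experiments. The rise was 0.61 (SE 0.06, adjusted p = 0.00525 from limma) and both probe sets were called. *Mef2a* and *Mef2c*, relatives of *Srf* known from muscle, rose by 0.50 and 0.34, each at 4 probe sets of 6 and 5. *Myc*, a driver of growth and ribosome production, went from 8.62, 9.002 and 8.59 to 9.16, 9.65 and 9.22 without overlap, a rise of 0.60 (SE 0.04, adjusted p = 7.31e-04). *Ets2* at 0.44, *Nfia* at 0.40 and *Bach2* at 0.54 followed, and all of their groups overlapped. *Smad6* and *Runx3* were lower at -0.30 and -0.23. Of 49 bZIP factors 6 were higher, and *Jun*, a part of the AP-1 complex, was lower at -0.20. Of 172 homeobox factors 5 were higher (2.91%), near the 2.57% of all genes, with *Meis2* at 0.41.

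Of 100 helix-loop-helix factors and Id proteins 5 were lower (5%) and 3 higher (3%), beside 1.57% and 2.57% of all genes. *Id3*, *Id2* and *Id1*, inhibitors of this family, were at -1.09, -1.03 and -0.94 and lay below control on every array. *Arntl*, which encodes the clock activator BMAL1, had log2 signals of 7.79, 7.90 and 7.70 in control cells and 7.14, 7.39 and 7.35 at 24 h, without overlap. Its fall was -0.50 (SE 0.07, adjusted p = 0.0117 from limma), at 1 of its 2 probe sets. *Atoh8* was lower at -0.41, and *Ahr*, the receptor of aryl hydrocarbons, was higher at 0.80 beside *Myc* and *Tcf4*.

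Several other called regulators belong, like *Arntl*, to the circadian clock. In this oscillator BMAL1 and CLOCK activate genes through E-box sequences, among them *Per* and *Nr1d* genes and the output factors *Dbp* and *Tef*, and PER and NR1D proteins act back on them. A list of 20 clock genes was drawn up after the values of some had been seen and is given as a description. Of these, 5 were higher and 1 lower, beside 2.57% and 1.57% of all genes. *Per2* had log2 signals of 5.69, 6.06 and 5.15 in control cells and 6.18, 6.71 and 6.14 at 24 h, with a rise of 0.71 (SE 0.10, adjusted p = 0.0133 from limma). *Nr1d2*, a nuclear receptor that represses *Arntl*, had 9.74, 10.16 and 9.45 in control cells and 10.23, 10.73 and 10.08 at 24 h, with a rise of 0.56 (SE 0.03, adjusted p = 7.09e-04). The groups of *Per2* stood apart and those of *Nr1d2* overlapped. *Dbp* at 0.47, *Tef* at 0.39 and *Per1* at 0.37 were also higher. *Per3* at 0.22, *Rora* at 0.27, *Cry1* at 0.16 and *Clock* at -0.17 did not pass, and the last 2 differed in sign between experiments. At 6 h the same 6 called genes were within 0.116 of control on the log2 scale, and 5 of them differed between 24 h and 6 h, the exception being *Per1* (adjusted p = 0.125).

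**Figure D3:**
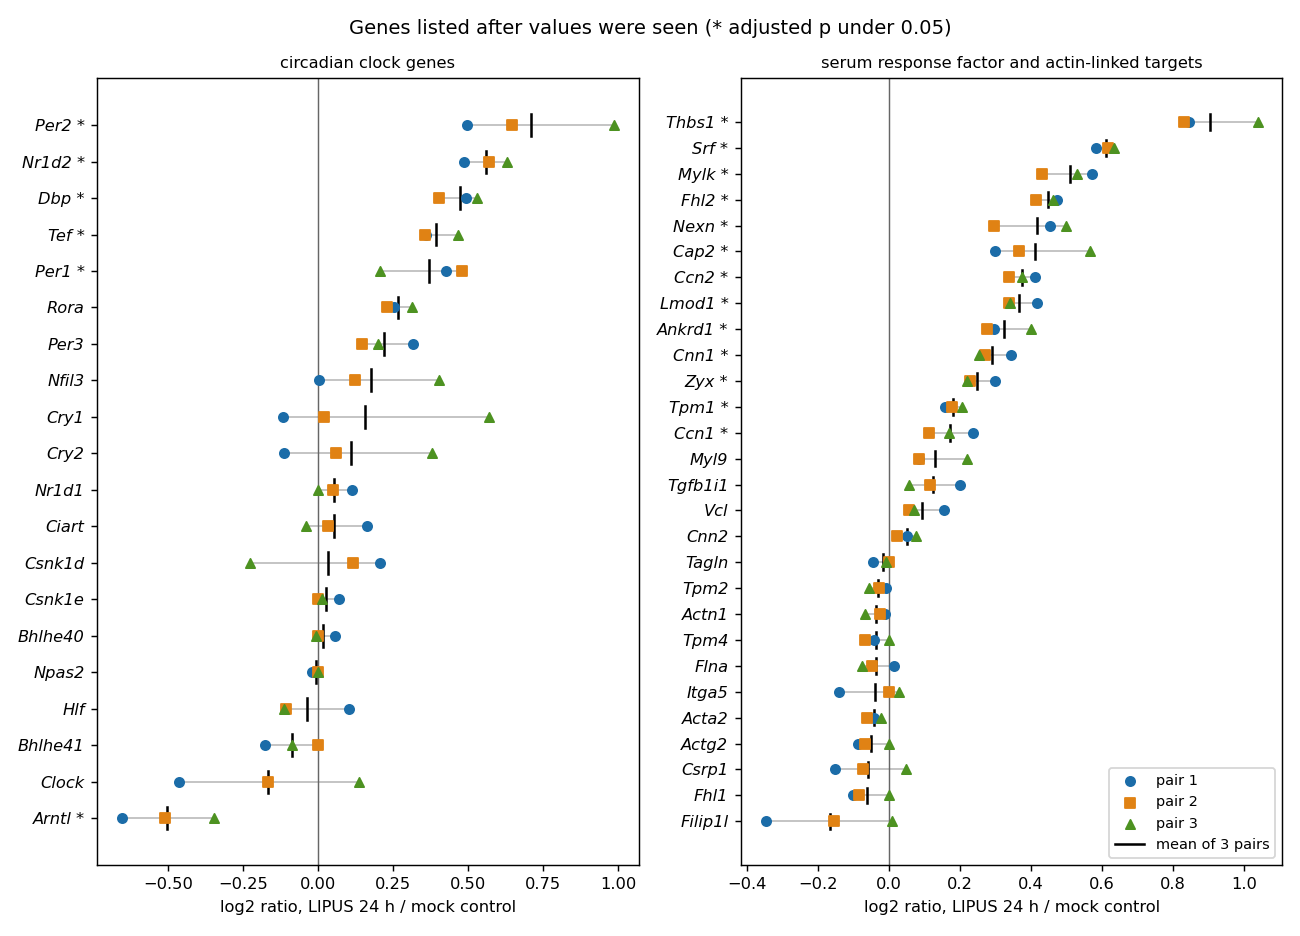
Log2 ratios of LIPUS 24 h to mock control for each experiment (points) and their mean (black bars), for circadian clock genes on the left and for serum response factor and actin-linked genes on the right. Asterisks mark genes with an adjusted p under 0.05 with limma. *Per2*, *Nr1d2*, *Dbp*, *Tef* and *Per1* are right of 0 in all experiments and *Arntl* left of 0, and many actin genes lie near 0 while *Srf* has 3 nearly equal ratios.

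Promoter sequences are shown for genes of these 2 groups, because both groups are known by a DNA motif of their regulator. The 250 bases before each RefSeq start (GRCm38.p6) were searched on both strands for the E-box CACGTG and for the CArG box, to which serum response factor binds, and the motifs do not overlap in the stretches shown. An E-box was in 7.38% of 18109 promoters of measured genes and in 3 of 6 promoters of the higher clock genes, which are those of *Per1* and *Tef*. It was also in 3 of 17 promoters of clock genes that were not called. A CArG box was in 1.23% of those promoters and in 3 of 11 promoters of the higher genes of the serum response factor list. It was likewise in 5 of 15 promoters of genes of that list that were not called. The 200 bases before the start are printed on the strand of the gene, with the motif in capitals.
*Per1*, chr11:69098749-69098948, plus strand, 1 E-box: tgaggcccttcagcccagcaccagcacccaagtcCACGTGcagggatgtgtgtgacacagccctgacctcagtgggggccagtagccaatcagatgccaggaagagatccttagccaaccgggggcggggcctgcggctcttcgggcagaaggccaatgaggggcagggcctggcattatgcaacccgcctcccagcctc
*Tef*, chr15:81811214-81811413, plus strand, 1 E-box: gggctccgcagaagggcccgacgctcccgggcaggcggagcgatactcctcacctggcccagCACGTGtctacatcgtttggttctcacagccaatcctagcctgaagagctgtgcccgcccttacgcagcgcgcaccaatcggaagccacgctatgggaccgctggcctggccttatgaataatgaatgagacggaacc
*Srf*, chr17:46556163-46556362, minus strand, 2 CArG boxes: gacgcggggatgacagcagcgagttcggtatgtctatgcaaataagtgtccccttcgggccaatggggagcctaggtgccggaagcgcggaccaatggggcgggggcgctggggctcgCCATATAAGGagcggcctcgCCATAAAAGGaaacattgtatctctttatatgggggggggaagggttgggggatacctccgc
*Fhl2*, chr1:43163962-43164161, minus strand, 1 CArG box: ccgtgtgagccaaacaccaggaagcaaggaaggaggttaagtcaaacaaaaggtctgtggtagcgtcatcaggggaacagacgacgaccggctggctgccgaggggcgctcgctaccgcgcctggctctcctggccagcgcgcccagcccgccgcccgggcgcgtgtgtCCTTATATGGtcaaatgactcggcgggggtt
A match says only that the letters are there, and binding was not measured.

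Genes known as targets of serum response factor or of actin signalling were listed in the same way, after values had been seen, and of 28 measured 13 were higher and 0 lower, beside 2.57% of all genes higher and 4.71% of those above the median signal. Because values had been seen, that count is a description. *Fhl2*, a cofactor of serum response factor, had log2 signals of 9.03, 9.19 and 8.88 in control cells and 9.50, 9.60 and 9.34 at 24 h, all above control, with a rise of 0.45 (SE 0.03, adjusted p = 9.51e-04 from limma). *Mylk*, the kinase of myosin light chain, rose by 0.51, *Nexn*, an actin-binding protein, by 0.42, and *Ankrd1*, a stretch-responsive muscle protein, by 0.32. The smooth muscle actin gene *Acta2* at -0.04, the actin-binding *Tagln* at -0.02 and *Actn1* at -0.04 were not called. Of the 72 contractile genes in the wider list, 8 were higher, among them *Tnnc1* and *Tnnt1* of striated muscle, and *Nebl* was lower at -0.53. Of 15 skeletal muscle markers 0 were called, at sums of linear signal of 369 to 387 in control cells and 360 to 391 at 24 h.

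Of 80 potassium channels 1 was called. *Kcnn4*, a calcium-activated channel, was lower at -0.23. *Aqp1*, a water channel, had log2 signals of 10.52, 10.78 and 10.47 in control cells and 11.05, 11.19 and 10.89 at 24 h, without overlap, and rose by 0.46 (SE 0.03, adjusted p = 9.97e-04 from limma). *P2rx7*, a channel opened by extracellular ATP, rose by 0.41, and *Panx1*, a channel through which ATP leaves cells, was lower at -0.31 (adjusted p = 0.0443). The difference between 24 h and 6 h did not pass for either of them (adjusted p = 0.102 and 0.201 from limma). *Cacna1g*, a calcium channel, rose by 0.23, the ion-transport regulator *Fxyd1* by 0.37, and its relative *Fxyd5* was lower at -0.30. *Slc30a1*, which exports zinc, went from 8.09, 8.07 and 7.55 to 8.63, 8.81 and 8.07, a rise of 0.60 (SE 0.05, adjusted p = 0.00188). The amino acid transporters *Slc7a1* and *Slc7a5* rose by 0.37 and 0.33, and *Slc6a6*, a taurine transporter, was lower at -0.17.

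Of 68 genes of purine and pyrimidine metabolism 4 were higher (5.88%) and 3 lower (4.41%), beside 2.57% and 1.57% of all genes. *Nt5e*, the ectonucleotidase that makes adenosine, had log2 signals of 6.76, 6.72 and 6.12 in control cells and 7.05, 7.63 and 7.12 at 24 h. The gap was narrowest in experiment 1, and the rise was 0.73 (SE 0.12, adjusted p = 0.0306 from limma), at 1 of 3 probe sets. *Entpd3*, which removes phosphates from ATP outside the cell, rose by 0.55, *Gda*, a guanine deaminase, by 0.27 and *Uck2*, a uridine kinase, by 0.21. The lower genes were *Cda*, a cytidine deaminase, at -0.49, *Pnp*, a nucleoside phosphorylase, at -0.30, and *Tk1*, a thymidine kinase, at -0.28.

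*Car9*, a membrane-bound carbonic anhydrase, was among the 15 largest rises outside the tables of the study. It had log2 signals of 4.13, 4.36 and 4.72 in control cells and 5.32, 5.35 and 5.42 at 24 h. The 24 h arrays were close together and well above control, and the rise was 0.96 (SE 0.09, adjusted p = 0.00386 from limma). It began at low signal, as the medians of the control arrays were 4.89, 5.15 and 5.01. Of 38 glycolytic genes 4 were higher (10.5%) and 1 lower (2.63%), beside 2.57% and 1.57% of all genes. *Eno3*, an enolase, had 8.73, 8.99 and 8.46 in control cells and 9.25, 9.60 and 9.18 at 24 h, a rise of 0.62 without overlap. *Pdp1*, a phosphatase that activates pyruvate dehydrogenase, rose by 0.59, *Pfkl* by 0.30 and *Ldhb* by 0.27, while *Pdk4*, a kinase that acts against *Pdp1*, was lower at -0.17. Of 84 subunits of the respiratory chain and ATP synthase 1 was called (1.19%, beside 4.14% of all genes), *Atp5e* at 0.20.

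Of 29 genes of fatty acid synthesis and desaturation 3 were lower and 0 higher. *Scd1*, a desaturase, had log2 signals of 11.09, 11.14 and 11.07 in control cells and 10.76, 10.81 and 10.76 at 24 h. Both groups were tight and apart, and the fall was -0.33 (SE 0.05, adjusted p = 0.0151 from limma), at 1 of 2 probe sets. *Elovl5* and *Fads2*, which lengthen and desaturate fatty acids, were at -0.27 and -0.24. In cholesterol synthesis 4 of 31 genes were lower, with *Tm7sf2* at -0.61, *Nsdhl* at -0.38, *Fdps* at -0.26 and *Lss* at -0.18, and 2 were higher, with *Insig1* at 0.28 and *Hsd17b7* at 0.25. Of 84 genes of the list of polyamine, creatine, urea and other amino acid enzymes 3 were higher and 2 lower. *Srm*, a synthase of polyamines, and *Smox*, an oxidase, rose by 0.30 and 0.34, and *Sat1*, which acetylates polyamines, was lower at -0.33. Of 33 genes of serine and one-carbon metabolism 2 were higher and 1 lower. *Phgdh* and *Mthfd2* rose by 0.23 and 0.29, and *Aldh1l2* was lower at -0.38. Of 76 genes of the pentose phosphate, NADPH and glutathione list 3 were higher, among them *Sod3*, a secreted superoxide dismutase, at 0.49 and *Aox1*, an aldehyde oxidase, at 0.38, and 4 were lower, among them *Nqo1*, a quinone reductase, at -0.57. Of 144 genes of the cytochrome P450 and steroid list 2 were higher and 2 lower (1.39% each), with *Fmo1*, a monooxygenase of foreign compounds, at 0.71. Of all genes 2.57% were higher and 1.57% lower.

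**Figure D4:**
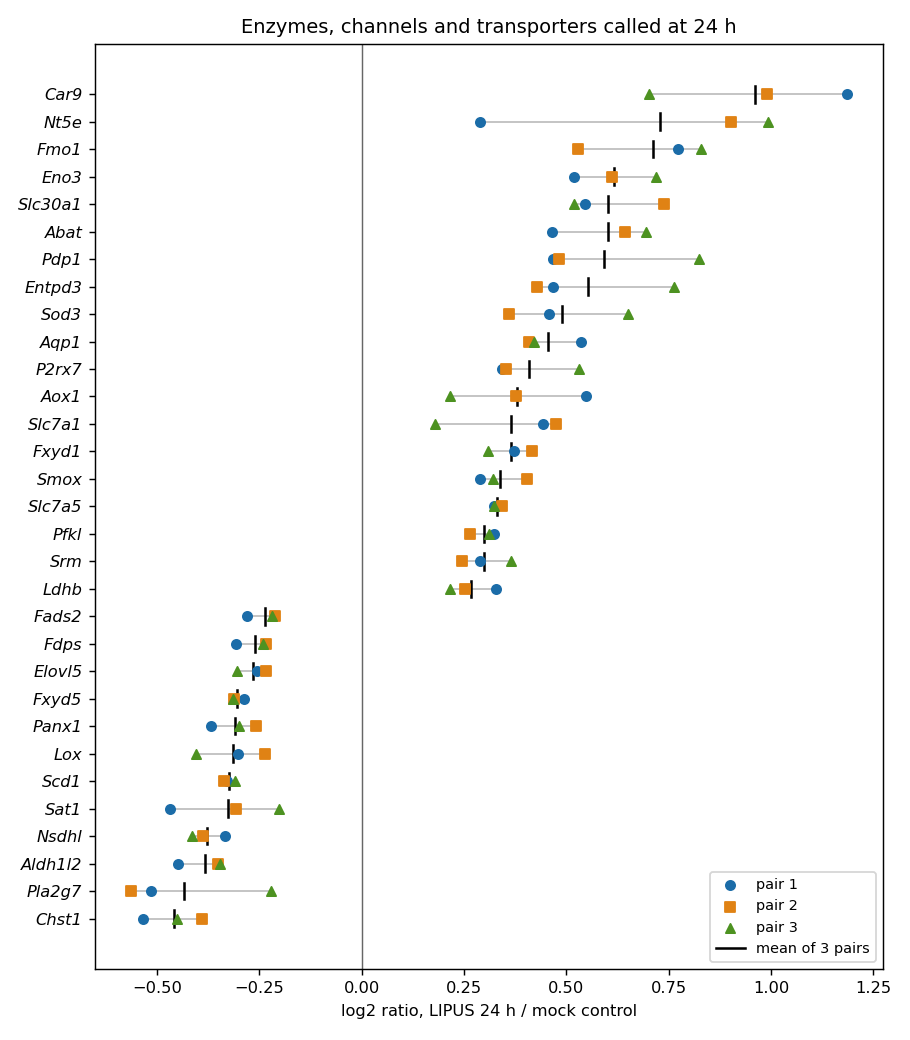
Log2 ratios of LIPUS 24 h to mock control in each experiment (points) and their mean (black bars) for called enzymes, channels and transporters. *Car9* and *Nt5e* have the largest means and a wide spread over experiments, whereas *Aqp1* and *Scd1* show smaller changes with closer points.

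The list of G2 and M phase genes had 43 lower members (56.6%) and 0 higher ones among 76, with medians of -0.316, -0.246 and -0.193 in experiments 1, 2 and 3. *Birc5*, which encodes survivin, a protein of the dividing spindle, had log2 signals of 10.87, 10.996 and 10.76 in control cells and 10.50, 10.63 and 10.41 at 24 h, without overlap, at a log2 fold change of -0.36 (SE 0.02, adjusted p = 0.00113 from limma). Of 72 genes of DNA replication 9 were lower, with *E2f7* at -0.43 and *Asf1b* at -0.38, and *Orc4* was higher at 0.15. Among the 18045 genes outside both lists 2.58% were higher and 1.3% lower.

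The 15 largest rises and the 15 largest falls outside the tables of the study were drawn by experiment. *Gbp8*, a guanylate-binding protein of the interferon response, had log2 signals of 3.41, 3.85 and 3.36 in control cells and 5.04, 5.39 and 4.92 at 24 h. The groups stood far apart at low signal, and the rise of 1.58 (SE 0.06, adjusted p = 1.9e-04 from limma), at its only probe set, was the largest outside those tables. Of 66 guanylate-binding and other interferon-inducible genes 6 were higher (9.09%) and 4 lower (6.06%), beside 2.57% and 1.57% of all genes. *Gbp6*, *Gbp3* and *Psmb8*, an immunoproteasome subunit, rose by 0.74, 0.31 and 0.23, while *Ifitm6* at -0.40 and *Ifit2* at -0.22 were lower. *Tmem86a*, an enzyme of ether lipid breakdown, had log2 signals of 8.32, 8.51 and 8.35 in control cells and 9.41, 9.39 and 9.23 at 24 h, which is a rise of 0.95 (SE 0.05, adjusted p = 3.74e-04 from limma). *Cmbl*, a hydrolase, rose by 0.77, and *Fbxo32*, a ubiquitin ligase known from muscle loss, by 0.71 with all of its 3 probe sets called. *Pkp1*, a protein of desmosomes, went from 7.65, 8.01 and 7.76 to 6.85, 7.32 and 6.997, and *Slurp1*, a secreted protein of skin, from 8.69, 9.03 and 8.33 to 7.91, 8.26 and 7.60. Their falls were -0.75 and -0.76. *Ecm1*, a matrix protein of skin and cartilage, was lower at -0.48, and *Capg*, which caps actin filaments, at -0.51.

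**Figure D5:**
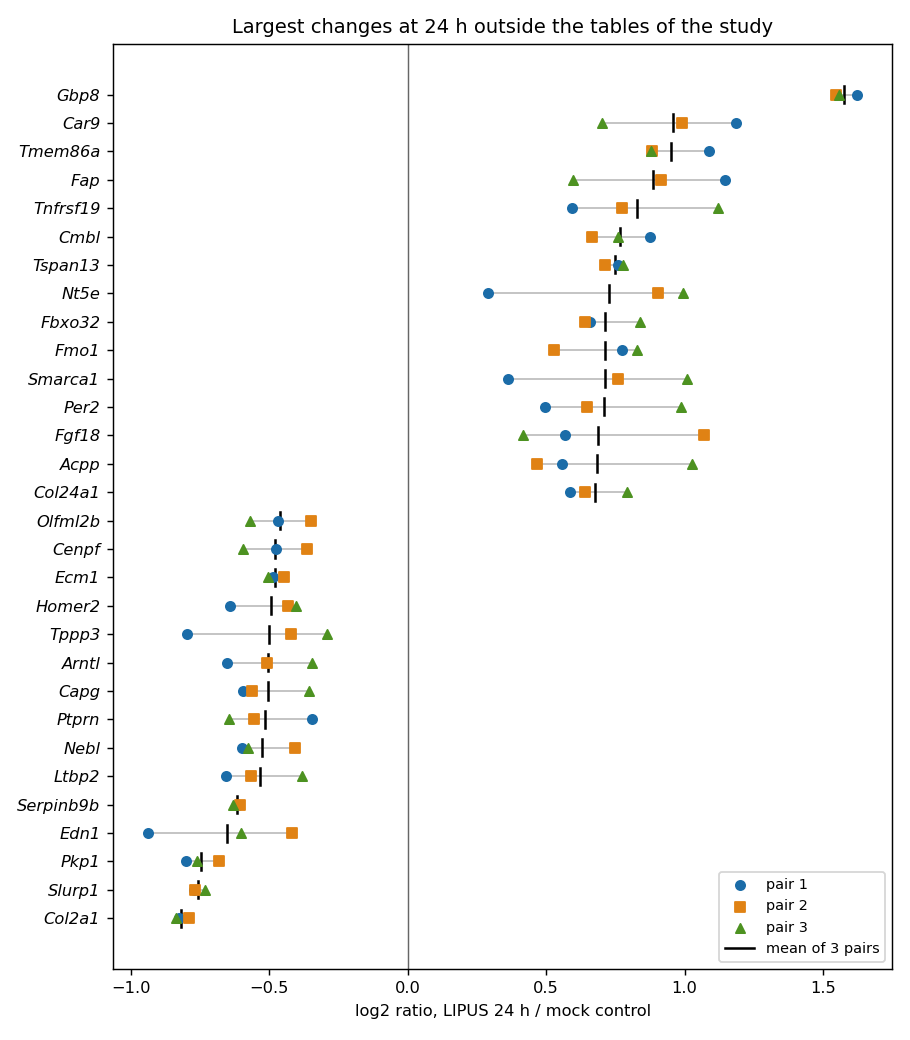
Log2 ratios of LIPUS 24 h to mock control in each experiment (points) and their mean (black bars) for the 15 largest rises and 15 largest falls outside the tables of the study. *Gbp8* at 1.58 lies apart from the rest, *Nt5e*, *Smarca1* and *Edn1* differ widely between experiments, and *Tspan13*, *Serpinb9b* and *Col2a1* have 3 nearly equal ratios.

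Markers of other cells moved in part with these results. Of 34 epithelial and keratinocyte markers *Krt14*, *Pkp1* and *Cdh1* were lower and *Trp63* was higher, and the summed linear signal of the list was 2573 to 3111 in control cells and 2061 to 2547 at 24 h. *Krt14*, lower at -0.98, had the highest mean log2 signal of the list, at 9.43, and weighs most in this sum. The median log2 fold change of the list was -0.053. Of 17 markers of macrophages and other blood cells *Lyz2* was higher at 0.49, with sums of 586 to 703 and 618 to 755. Of 13 endothelial markers 0 were called, with sums of 367 to 439 in control cells and 370 to 416 at 24 h, and of 10 adipocyte markers 0, with sums of 304 to 330 and 293 to 323. The 18 chondrocyte markers summed to 3062 to 4275 and 2834 to 3902. Of 18 markers of the osteoblast lineage *Dmp1* and *Omd* were higher. The summed signal, from 46485 to 58824 in control cells and 48454 to 59739 at 24 h, was above that of the other marker lists. Mean log2 signals over the 9 arrays were 14.19 for *Col1a2* and 13.77 for *Postn*, but 4.17 for *Mepe* and 3.42 for *Ibsp*. The sum thus follows its few strongest members and does not check the label of the line. The part of these markers in the results was not tested, and fewer cells of a type and less RNA per cell cannot be told apart in such samples.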

How the data were processed

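The arrays were Affymetrix GeneChips covering the mouse genome, hybridised from 500 ng of total RNA. The log2 signals were deposited by the authors after RMA, whose version, settings and batches are not given in the sources used here. They were not transformed further. The 64 AFFX controls were left out. Of 45037 probe sets 34945 had 1 symbol in the platform annotation, 932 several and 9160 none.

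Limma 3.58.1 in R 4.3.3 fitted all 9 arrays with a variance trend and the replicate number as block (4 residual and 3.00 prior degrees of freedom), with Benjamini-Hochberg adjustment. Replicate numbers come from the labels. That they pair arrays was read from the data: same-numbered arrays deviated together from their group means (correlations of at least 0.701, others at most 0.00916). The contrast is partly built in, because deviations from a mean of 3 arrays sum to 0, which pushes the other correlations down. Exactly equal signals within an experiment can also raise the same-numbered ones. The study describes 3 repeated experiments and does not say how far their cultures were separate. The p-values therefore measure only the spread among these 9 arrays that is left after the block, and 3 arrays a group limit the precision. On simulated data with 50 probe sets changed at each size, 14, 24, 44 and 49 were recovered at 1.2-fold, 1.5-fold, 2-fold and 3-fold, with 2 false calls among 45037 probe sets. The simulated noise was independent between arrays and held none of the equal values of the deposited signals. Recovery and false calls in the deposited data may therefore differ.

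Named were the 15 largest rises and falls outside the tables of the study that kept their sign in all experiments, up to 5 called members of each gene list or 2 by value, markers and *Actb*. Other genes were chosen after their values were seen. Members and lists were chosen with earlier results of these data known. Motifs and promoters came from RefSeq tables for 14452 genes. Alternatives to block, trend, arrays, normalization, weights, test and threshold were run, and 2 on equal values were added after seeing the data.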

Additional observations from a re-analysis of the deposited data

Results flagged for a closer look

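Changes at 24 h were set against those at 6 h, with the same limma model, which tests the difference of the 2 times itself. With an adjusted p under 0.05, 318 genes were higher and 271 lower at 24 h than at 6 h. Among genes called in both comparisons outside the tables of the study, the largest such differences on the log2 scale were 1.341 for *Gbp8*, 0.988 for *Tmem86a*, 0.968 for *Car9*, -0.844 for *Hspb1*, a gene of the heat shock protein family, -0.837 for *Col2a1*, and -0.787 for *Pkp1*. The 467 higher and 286 lower genes all had the same sign against 6 h, where 296 and 219 were also called, and both comparisons share the 24 h arrays. No group had enough arrays for a test of single outlying arrays.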

How the results depend on the processing

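All 753 genes kept their direction under the settings that tested them, but the number called did not hold. Several settings, such as those without the block or the trend, use the same mean log2 ratio, so direction could not change in them. Arrays were paired by replicate number. Without the replicate block 1 probe set was higher and 0 lower, and 0 genes were called. Of the 515 genes that also differed from 6 h, 0 remained. On the control and 24 h arrays alone 4 probe sets (4 genes) were higher and 1 (1 gene) lower, with 3667 probe sets at an unadjusted p under 0.05. The methods' t-test and a paired test without moderation each called 0, with 351 and 2355 probe sets at an unadjusted p under 0.05. These 2 counts cannot be read against a share of 0.05 of the 45037 probe sets. The t-test leaves the differences between experiments in its spread. In the paired test the 28361 probe sets with a ratio of exactly 1 in a pair could not reach such a p. Without the variance trend 374 and 148 probe sets were called (221 and 105 genes, 228 also against 6 h), and with array weights 5125 and 4151 (2435 and 1973 genes). A ratio of 1.5 in each pair left 43 and 16 probe sets (33 and 11 genes), and an adjusted p under 0.10 gave 1246 and 632 (708 genes higher). Leaving out 1 experiment gave 0 to 786 probe sets higher and 0 to 653 lower, 0 to 474 genes higher and 0 to 381 lower, and 0 to 480 genes against 6 h. The lowest values were without experiment 1, and without experiment 2 there were 33 and 16 probe sets. Quantile normalization moved the split from 809 and 420 to 746 and 576. Without probe sets of equal values within an experiment 1324 and 645 were called (761 and 430 genes), and without those at a ratio of exactly 1 in a pair 1362 and 689 (778 and 463 genes). These 2 settings were chosen after seeing the data and leave fewer probe sets to adjust over, and the second could remove no called probe set by its construction. For the other settings the cause was not tested.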

Other observations

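The insulin-like growth factor axis was described as a list drawn up after values had been seen. Of 19 genes measured 9 were higher and 2 lower, beside 2.57% and 1.57% of all genes. *Irs1*, the adaptor that carries the signal of insulin-like growth factor receptors, had log2 fold changes of 0.62, 0.51 and 0.33 in experiments 1, 2 and 3 (mean 0.48, adjusted p = 0.00477 from limma). *Pik3r1*, a regulatory subunit of phosphoinositide 3-kinase, rose by 0.40 and *Pappa2*, a protease of binding proteins, by 0.42. The binding proteins differed in direction, with *Igfbp2* at 0.44 and *Igfbp4* at 0.27 higher and *Igfbp7* at -0.30 and *Igfbp6* at -0.24 lower. *Igfbp3* at -0.06, *Igfbp5* at 0.11 and the receptor *Igf1r* at 0.02 were not called.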
